A study of Arabidopsis thaliana with 8 samples.

Results

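The subject is how transcript levels changed in the cold in wild-type Arabidopsis thaliana, from the 2 arrays labelled wild type and cold set against the 2 labelled wild type and warm, 4 of the 8 arrays in the study. The wild type was the ecotype Col-0. Per the labels, seeds were chilled for 48 h at 4 °C, plants grew for 38 days at 20 °C in short days (8 h light, 16 h dark, 70% humidity, 100 microEinsteins of light) to growth stage 1.14, and the wild-type rosettes were frozen whole. The sources used here do not state how cold the cold plants were kept or for how long, and the harvest text of the cold plants is the same as that of the warm plants, so warm and cold stand as labelled. The other 4 arrays, 2 warm and 2 cold, are of sfr3, a mutant line from EMS mutagenesis in the Col-0 background, grown in the same way. The tissue label is the same for all 8, but the harvest text names the rosette for wild type and the aerial parts for sfr3. They entered the fit for the common spread between replicates and 1 comparison of responses.

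Low, non-freezing temperature slows enzymes, membrane transport and growth, while light is still absorbed by the leaf. Plants that acclimate are known to build up soluble sugars, protective hydrophilic proteins and flavonoids, to adjust their chloroplasts and to reduce expansion growth. The protective proteins are encoded by the cold-regulated (COR) genes, and the genes described here lie mostly outside that set.

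Each array gave a MAS5 signal for 22746 probe sets besides controls, a brightness on a linear scale on which the 2% trimmed mean of every array is 100. The median signal of the 4 wild-type arrays was 36.6 to 39.0. Their background level, taken as the 95th percentile over 27 bacterial probe sets that should stay dark, was 6.37 to 11.3. Log2 signals of the replicates correlated at 0.969 across probe sets in the warm and 0.976 in the cold. The array of cold sfr3 replicate 1 stood apart, with hybridisation controls at 5.75 times their median on the others. COR15A, which encodes a chloroplast protein that protects membranes, had signals of 564 and 1028 in the warm and 7421 and 8338 in the cold, in the direction of the labels. Of 8 tested genes on a list of cold-regulated genes 5, COR15A among them, were higher in the cold by limma's adjusted p, against 11.9% of all genes. STZ was lower (log2 -2.35, adjusted p = 0.000243), against 12.2% of all genes, and COR47 and LEA4-5 did not pass. In whole rosettes, fewer cells of a type and less RNA per cell cannot be told apart.

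In the cold, genes of amino acid breakdown (7 of 8 tested), autophagy (7 of 10) and auxin, shade and growth (9 of 14) were lower, against 12.2% of all genes tested. The autophagy genes tested were ATG8 genes apart from ATG3, and all 7 that were lower were ATG8 genes. Genes of plastid protein synthesis and folding (7 of 10), of ascorbate, glutathione and peroxiredoxins (5 of 9) and of the serine carboxypeptidase family (7 of 15) were higher, against 11.9% of all genes. Apart from the autophagy list, these groups were put together after the values were seen. Several families held members that moved in opposite directions. A gene is called, or said to have risen or fallen, where limma's adjusted p was below 0.05. Of 13648 probe sets tested, 3594 (26.3%) were called, 1780 (13.0%) higher and 1814 (13.3%) lower. With 1 probe set for each gene that the platform annotation pairs with probe sets of its own, 1748 of 7267 genes were called (24.1%), 864 higher and 884 lower. In all 1748 the cold pair of signals lay wholly above or wholly below the warm pair, as it did in 73.1% of all 7267 genes. A remark below that a called gene was higher or lower on both cold arrays therefore restates its call and adds no support. Without warm replicate 1, warm replicate 2, cold replicate 1 or cold replicate 2, the number of probe sets called was 1646, 1917, 1754 and 1500. Without cold sfr3 replicate 1 or replicate 2 it was 6206 and 6191.

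Values below are signals in the order replicate 1 and replicate 2 of each condition, and changes are log2 differences, cold minus warm, of signal plus a pseudocount of 2.17, with a median over all genes near 0 (-0.00070). Large changes were more often falls than rises. At least 4-fold falls were called in 238 genes and rises in 111, and at least 16-fold falls in 23 and rises in 7. Without warm replicate 1, warm replicate 2, cold replicate 1 or cold replicate 2, falls of at least 4-fold numbered 172, 208, 234 and 196 and rises 99, 101, 89 and 72. The gene groups and lists described below were all chosen with earlier results of these data known, so a count over any of them is a description. Apart from the lists for autophagy, sugar starvation, light signalling, flavonoids, salicylic acid and starch and sugars, they were also put together after the values given here were seen.

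**Figure D1:**
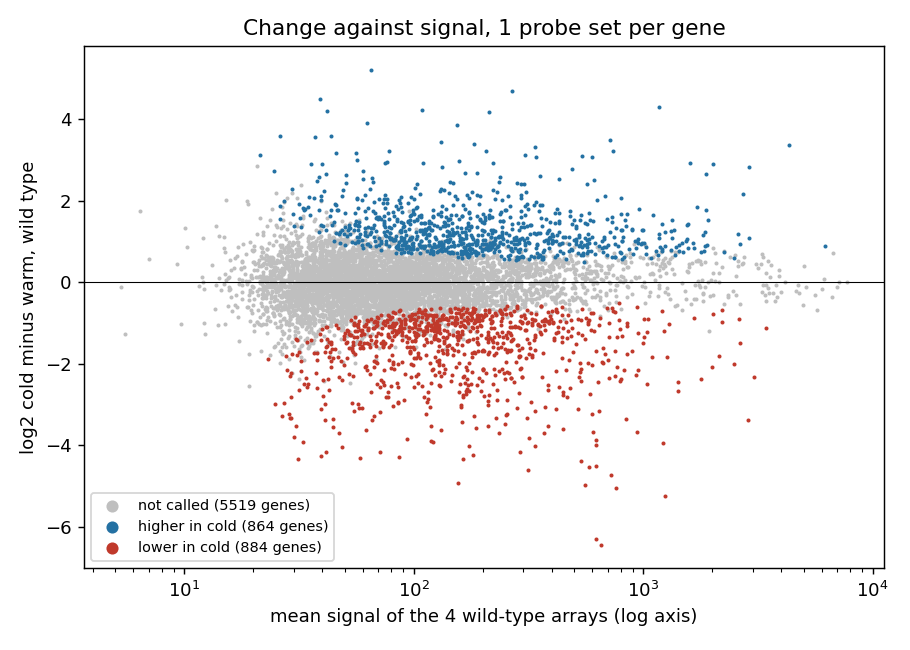
Log2 change in the cold (vertical axis) against the mean signal of the 4 wild-type arrays (horizontal, log axis), 1 point for each of 7267 genes. Blue points are the 864 genes that rose, red points the 884 that fell and grey points genes not called, and red points extend farther from 0 than blue points.

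Plants respire the carbon skeletons of amino acids when sugar is short, and branched-chain amino acids pass through a set of mitochondrial enzymes. MCCA, the biotin-bearing subunit of methylcrotonyl-CoA carboxylase in leucine breakdown, had signals of 992 and 1055 in the warm and 58.0 and 37.5 in the cold (log2 -4.39, SE 0.22, adjusted p = 6.66e-06). Both cold arrays were far below both warm arrays. MCCB, its partner subunit, fell from 352 and 301 to 109.8 and 126 (log2 -1.45, SE 0.29, adjusted p = 0.00639). IVD, isovaleryl-CoA dehydrogenase, acts a step earlier and fell from 436 and 317 to 52.3 and 38.1 (log2 -3.0, SE 0.59, adjusted p = 0.00546). ETFQO, which passes electrons from such dehydrogenases to ubiquinone, fell from 237 and 189 to 38.9 and 50.7 (log2 -2.20, SE 0.25, adjusted p = 0.000353). The dehydrogenase, the oxidoreductase and both carboxylase subunits were therefore low on both cold arrays. ALDH6B2, methylmalonate-semialdehyde dehydrogenase of valine breakdown, fell from 1405 and 1227 to 429 and 354 (log2 -1.75, SE 0.19, adjusted p = 0.000286). MGL, the methionine gamma-lyase that breaks methionine down, fell from 604 and 323 to 37.5 and 38.6 (log2 -3.46, SE 0.34, adjusted p = 0.000141), with more spread in the warm than in the cold. Of 8 tested genes of amino acid breakdown 7 fell and none rose by limma's adjusted p (0 higher at an unadjusted p below 0.05), with a median of -1.98. D2HGDH, D-2-hydroxyglutarate dehydrogenase, was at -0.96 (adjusted p = 0.0551). Without warm replicate 1, warm replicate 2, cold replicate 1 or cold replicate 2, in that order, there were 4, 6, 6 and 5 falls. IVD lost its call without warm replicate 1 or cold replicate 2 (adjusted p = 0.0598 and 0.0534), and MCCB without warm replicate 1 or cold replicate 1 (adjusted p = 0.0653 and 0.0584).

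Autophagy recycles cytoplasm through vesicles, and ATG8 proteins are the small ubiquitin-like tags on their membranes. ATG8E had signals of 724 and 654 in the warm and 60.1 and 43.1 in the cold (log2 -3.70, SE 0.49, adjusted p = 0.000740). Its cold arrays were far below its warm arrays, while other members of the family changed by less. ATG8F fell from 1583 and 1310.2 to 609.7 and 527 (log2 -1.34, SE 0.21, adjusted p = 0.00180). ATG8C fell from 365 and 355 to 153 and 137 (log2 -1.30, SE 0.25, adjusted p = 0.00454). ATG8H fell from 107 and 121 to 16.2 and 15.6 (log2 -2.69, SE 0.60, adjusted p = 0.0103). ATG8G and ATG8D were at -0.52 and -0.16 (adjusted p = 0.177 and 0.654), and ATG3, an enzyme that attaches ATG8 to lipid, at -0.51 (adjusted p = 0.0739). Of 10 tested genes on the autophagy list 7 fell and none rose by limma's adjusted p (0 higher at an unadjusted p below 0.05), with a median of -1.01. Apart from ATG3 all of the 10 are ATG8 genes, so the count describes that family and not autophagy as a whole. In fits without each wild-type array in turn (warm replicates 1 and 2, then cold replicates 1 and 2) there were 4, 4, 4 and 2 falls, and leaving out cold sfr3 replicate 1 gave 9. ATG8H lost its call without any 1 wild-type array (adjusted p = 0.0584 to 0.0834), and ATG8C without cold replicate 2 (adjusted p = 0.0528).

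Of 18 genes on the sugar starvation list only 2 could be tested, and both fell, against 12.2% of all genes. AKINBETA1, a beta subunit of SnRK1, the kinase that works under energy shortage, had signals of 1102 and 1288 in the warm and 50.4 and 50.7 in the cold (log2 -4.5, SE 0.27, adjusted p = 1.43e-05). The locus AT3G15450 had signals of 5249 and 5182 in the warm and 493 and 507 in the cold (log2 -3.38, SE 0.31, adjusted p = 9.95e-05). In both the replicates were close and the conditions far apart. SDP1, the SUGAR-DEPENDENT1 lipase that starts the breakdown of stored triacylglycerol, was chosen after its values were seen and fell from 303 and 266 to 42.6 and 57.1 (log2 -2.48, SE 0.22, adjusted p = 8.38e-05).

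Auxin and shade-response genes take part in the elongation of petioles and leaves. IAA29, an Aux/IAA repressor of auxin signalling, had signals of 279 and 414 in the warm and 18.4 and 14 in the cold (log2 -4.23, SE 0.28, adjusted p = 2.38e-05). GH3.3, which joins auxin to amino acids, fell from 385 and 219.6 to 3.2 and 15.3 (log2 -4.92, SE 0.54, adjusted p = 0.000278). WES1, another such enzyme, fell from 659 and 613 to 35.1 and 39.6 (log2 -4.02, SE 0.47, adjusted p = 0.000390). These 3 auxin-responsive genes were low on both cold arrays. HAT2, an HD-Zip factor that responds to auxin and shade, fell from 485 and 428 to 50.6 and 41.7 (log2 -3.25, SE 0.23, adjusted p = 2.70e-05). ARL (ARGOS-like), a promoter of cell expansion, fell from 455 and 337 to 86.0 and 91.0 (log2 -2.12, SE 0.21, adjusted p = 0.000141). EXO (EXORDIUM), a growth gene of brassinosteroid response, fell from 148 and 249.7 to 48.4 and 37.2 (log2 -2.12, SE 0.43, adjusted p = 0.00634). Of the 3 gibberellin receptor genes tested, GID1B fell from 85.1 and 77.1 to 19.1 and 17.2 (log2 -2.03, SE 0.30, adjusted p = 0.00137). The others, GID1C and GID1A, were at -0.55 and -0.07 (adjusted p = 0.230 and 0.873). Of 14 tested genes of auxin, shade and growth 9 fell and none rose by limma's adjusted p (0 higher at an unadjusted p below 0.05), with a median of -1.87. The same fits, leaving out warm replicate 1, warm replicate 2, cold replicate 1 or cold replicate 2, gave 7, 6, 8 and 6 falls. EXO lost its call without warm replicate 2 or cold replicate 2 (adjusted p = 0.0756 and 0.0626).

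Among proteins that loosen or remodel the cell wall, 2 genes were higher and 2 lower of 11 tested expansins and 1 higher and 2 lower of 6 tested xyloglucan endotransglucosylases, against 11.9% higher and 12.2% lower over all genes. Such small counts are no result about either family. Leaving out warm replicate 1, warm replicate 2, cold replicate 1 or cold replicate 2 gave 1, 1, 0 and 0 expansins higher and 2 lower each time, with 1 xyloglucan gene higher and 1 lower each time. EXPA8, an alpha-expansin, fell from 254 and 321 to 44.9 and 62.6 (log2 -2.38, SE 0.33, adjusted p = 0.000870). EXLA1, an expansin-like protein, fell from 500.3 and 449 to 126 and 92.3 (log2 -2.12, SE 0.26, adjusted p = 0.000488). EXGT-A3, a xyloglucan endotransglycosylase, fell from 1108 and 936 to 145 and 160.0 (log2 -2.72, SE 0.19, adjusted p = 3.10e-05). Relatives of these genes rose. XTH32, also a xyloglucan enzyme, had signals of 192 and 187 in the warm and 572 and 560.0 in the cold (log2 1.57, SE 0.16, adjusted p = 0.000199). EXPB1, a beta-expansin, had signals of 20.4 and 3.47 in the warm and 108 and 91.7 in the cold (log2 3.18, SE 0.63, adjusted p = 0.00573), and its warm arrays stood several-fold apart. Among other wall enzymes, chosen after their values were seen, GH9C2, an endoglucanase, rose from 91.2 and 123 to 531 and 428 (log2 2.15, SE 0.21, adjusted p = 0.000162). CSLC04, a glucan synthase of the xyloglucan backbone, fell from 527 and 492 to 201 and 219.8 (log2 -1.27, SE 0.20, adjusted p = 0.00180). EXPB1 lost its call without cold replicate 1 or cold replicate 2 (adjusted p = 0.0642 and 0.0537).

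The chloroplast makes part of its own protein, and new and imported subunits are folded there. The Cpn60 chaperonin, a barrel in which Rubisco subunits fold, has several beta subunits. Cpn60beta2 had signals of 100.2 and 123 in the warm and 351 and 481 in the cold (log2 1.87, SE 0.23, adjusted p = 0.000534). Cpn60beta3 rose from 17.8 and 9.84 to 64.3 and 65.5 (log2 2.12, SE 0.41, adjusted p = 0.00502). Cpn60beta4 rose from 35 and 54.7 to 152 and 168 (log2 1.82, SE 0.26, adjusted p = 0.00116). In all 3 subunits both cold arrays were above both warm arrays. New plastid proteins start with a formylated methionine, which a deformylase and an aminopeptidase then remove. PDF1B, a peptide deformylase, rose from 68.1 and 69.3 to 286 and 335 (log2 2.14, SE 0.25, adjusted p = 0.000394). MAP1C, a methionine aminopeptidase, rose from 189 and 215 to 714 and 608 (log2 1.70, SE 0.36, adjusted p = 0.00806). Their relatives PDF1A, MAP1D and MAP1B were at 0.51, 0.40 and -0.66 (adjusted p = 0.200, 0.170 and 0.291). Of 10 tested genes of plastid protein synthesis and folding 7 rose and none fell by limma's adjusted p (0 lower at an unadjusted p below 0.05), with a median of 1.39. Without warm replicate 1, warm replicate 2, cold replicate 1 or cold replicate 2, in that order, there were 4, 6, 3 and 4 rises. MAP1C lost its call without warm replicate 1 or cold replicate 1 (adjusted p = 0.0712 and 0.0667), and Cpn60beta3 without cold replicate 1 or cold replicate 2 (adjusted p = 0.0565 and 0.0655).

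Among genes encoded in the chloroplast itself most did not pass. rbcL, for the large subunit of Rubisco, rose from 419.9 and 431 to 1363 and 1607 (log2 1.79, SE 0.19, adjusted p = 0.000206). rps16, for a ribosomal protein, rose from 105 and 88.7 to 227 and 291 (log2 1.39, SE 0.25, adjusted p = 0.00337). These were the 2 called of 69 plastid-encoded genes tested, 2.90% higher against 11.9% over all genes. None fell by limma's adjusted p (0 lower at an unadjusted p below 0.05), against 12.2% of all genes, and the median was -0.07. Most plastid transcripts lack the long poly(A) tails on which priming of such labelling reactions relies, which limits these values. Without cold sfr3 replicate 1, 3 were higher and 2 lower, and with the wild-type arrays alone 7 were higher and 12 lower. rps16 lost its call without cold replicate 2 (adjusted p = 0.0537).

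Some nuclear genes that act on chloroplast RNA or assemble its complexes rose. CRR42, needed for the NDH complex of the thylakoid, had signals of 55.6 and 51.0 in the warm and 189.9 and 187 in the cold (log2 1.78, SE 0.22, adjusted p = 0.000471). CRR21, also needed for that complex, rose from 26.2 and 19.4 to 69.1 and 64.5 (log2 1.48, SE 0.36, adjusted p = 0.0146). PAC (PALE CRESS), needed for chloroplast development, rose from 33.0 and 31.4 to 74.5 and 89.8 (log2 1.29, SE 0.34, adjusted p = 0.0210). In these genes the cold arrays stood above the warm arrays. HCF101, a carrier of iron-sulphur clusters for photosystem I, rose from 225 and 323 to 563 and 499 (log2 0.97, SE 0.21, adjusted p = 0.00830). These were the 4 that rose of 12 tested (against 11.9% of all genes), none fell by limma's adjusted p (1 lower at an unadjusted p below 0.05), and the median was 0.58. In fits without each wild-type array in turn (warm replicates 1 and 2, then cold replicates 1 and 2) there were 1, 2, 1 and 1 rises, and leaving out cold sfr3 replicate 1 gave 7. CRR21 lost its call without any 1 wild-type array (adjusted p = 0.0520 to 0.121), PAC without any 1 wild-type array (adjusted p = 0.0850 to 0.166) and HCF101 without warm replicate 1, cold replicate 1 or cold replicate 2 (adjusted p = 0.0510 to 0.0819).

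Chlorophyll is built from 5-aminolevulinate through a shared tetrapyrrole path. GSA1, which makes 5-aminolevulinate, rose from 207 and 244 to 536 and 553 (log2 1.27, SE 0.23, adjusted p = 0.00330). HEME2, uroporphyrinogen decarboxylase further along that path, rose from 329 and 330.2 to 734 and 707 (log2 1.12, SE 0.18, adjusted p = 0.00216). CHLI2, a subunit of the magnesium chelatase that commits protoporphyrin to chlorophyll, rose from 125 and 134 to 442 and 518 (log2 1.87, SE 0.18, adjusted p = 0.000139). These 3 genes were higher on both cold arrays, and CHLI2 had the largest log2 change of them. LIL3:1, a light-harvesting-like protein that binds an enzyme of the chlorophyll side chain, rose from 424 and 579 to 839 and 836 (log2 0.76, SE 0.20, adjusted p = 0.0201). PORB, protochlorophyllide oxidoreductase, was at 0.62 (adjusted p = 0.0553). Of 10 tested genes 4 rose (against 11.9% of all genes) and none fell by limma's adjusted p (0 lower at an unadjusted p below 0.05), with a median of 0.57. Besides PORB, those not called were HEME1 (0.51), LIL3:2 (0.47), HEMB1 (0.01), CHLM (-0.15) and HEMA2 (-0.62). There were 3, 4, 3 and 3 rises without warm replicate 1, warm replicate 2, cold replicate 1 or cold replicate 2, and 7 without cold sfr3 replicate 1. LIL3:1 lost its call without warm replicate 1, cold replicate 1 or cold replicate 2 (adjusted p = 0.118 to 0.170), with arrays centred on their medians (adjusted p = 0.0841) and with no intensity trend in the fit (adjusted p = 0.0559).

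Most tested genes of light harvesting and carbon fixation did not pass. SBPASE, an enzyme of the Calvin cycle, rose from 1469 and 1701 to 3592 and 3568 (log2 1.18, SE 0.28, adjusted p = 0.0127). RCA (Rubisco activase), PRK (phosphoribulokinase), PSAE-1 of photosystem I and the antenna genes LHCB4.1, LHCB4.2 and LHCB4.3 had log2 values between -0.66 and 0.52. SBPASE lost its call without any 1 wild-type array (adjusted p = 0.0556 to 0.104) and with arrays centred on their medians (adjusted p = 0.0617).

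Light absorbed in the cold gives rise to hydrogen peroxide in chloroplasts, which ascorbate peroxidases and peroxiredoxins remove. SAPX, the stromal ascorbate peroxidase, had signals of 94.8 and 92.4 in the warm and 489.9 and 529 in the cold (log2 2.42, SE 0.17, adjusted p = 3.10e-05). Its thylakoid-bound counterpart TAPX had signals of 399 and 335 in the warm and 319 and 299.7 in the cold (log2 -0.24, adjusted p = 0.460). VTC4, an enzyme of ascorbate synthesis, rose from 105 and 109 to 538 and 482 (log2 2.23, SE 0.18, adjusted p = 5.74e-05). The stromal peroxidase thus rose several-fold while the thylakoid one did not pass. NTRC, a thioredoxin reductase that serves peroxiredoxins in the chloroplast, rose from 251 and 259 to 707 and 788 (log2 1.54, SE 0.17, adjusted p = 0.000280). GR, the organellar glutathione reductase, rose from 397 and 481 to 928 and 842 (log2 1.01, SE 0.19, adjusted p = 0.00414). SRX, sulfiredoxin, which repairs over-oxidised peroxiredoxins, fell from 270.4 and 217 to 128 and 128 (log2 -0.91, SE 0.19, adjusted p = 0.00738). Of 9 tested genes of ascorbate, glutathione and peroxiredoxins 5 rose (against 11.9% of all genes) and 1 fell (against 12.2%), with a median of 0.96. The same fits, leaving out warm replicate 1, warm replicate 2, cold replicate 1 or cold replicate 2, gave 3, 5, 3 and 4 rises. Of 8 tested thioredoxin genes 3 were higher and 1 lower, and of 6 tested glutathione transferase genes 3 were higher, against 11.9% higher and 12.2% lower over all genes. Without each wild-type array in that order, 1, 2, 1 and 1 glutathione transferase genes were higher, and each time 2 thioredoxin genes were higher and 0 lower. ty2, thioredoxin y2, rose from 191 and 251 to 754 and 725 (log2 1.74, SE 0.30, adjusted p = 0.00259). GSTU20, a glutathione transferase of the tau class, rose from 331 and 190.3 to 1061 and 1136 (log2 2.12, SE 0.30, adjusted p = 0.00106). SRX lost its call without warm replicate 1, cold replicate 1 or cold replicate 2 (adjusted p = 0.0626 to 0.0803) and with arrays centred on their medians (adjusted p = 0.0560), and GR without warm replicate 1 or cold replicate 1 (adjusted p = 0.0511 and 0.0516).

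**Figure D2:**
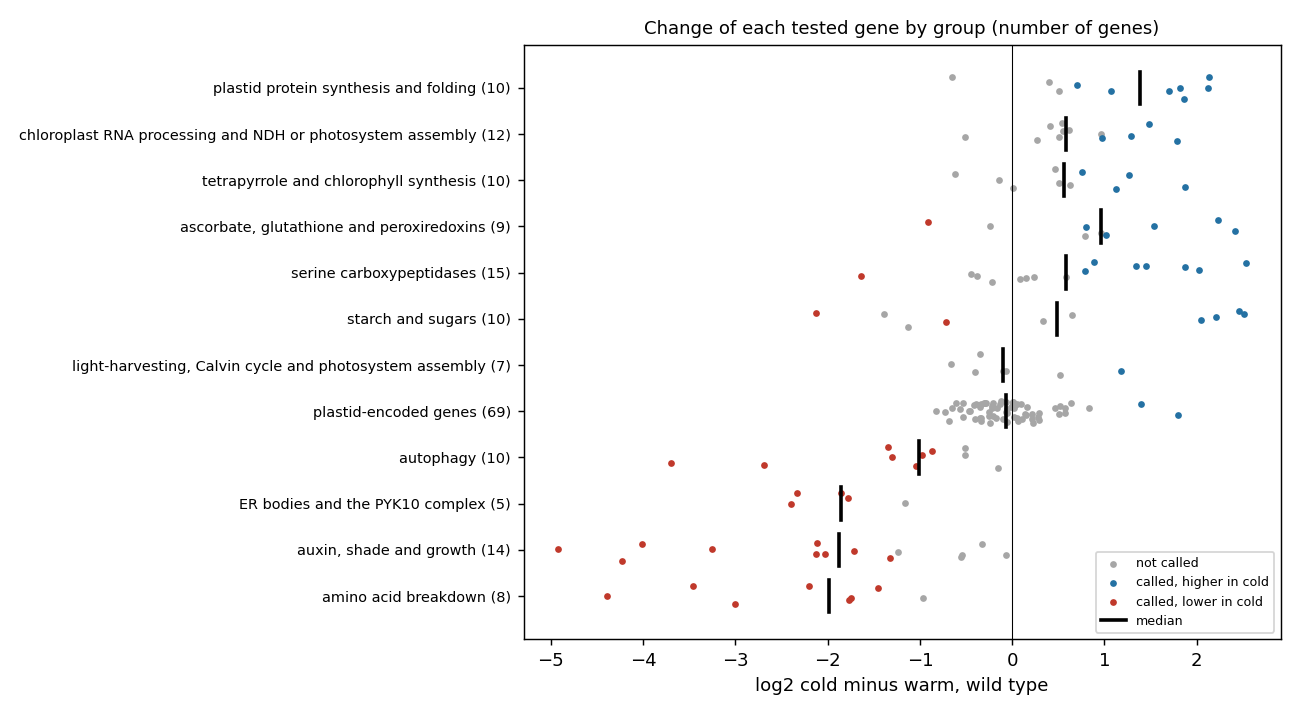
Log2 change in the cold (horizontal axis) of every tested gene of 12 groups, with the number of genes beside each name. Blue points rose, red points fell, grey points were not called and the black bar is the median, which runs from 1.39 for plastid protein synthesis and folding to -1.98 for amino acid breakdown.

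Sugars cross membranes through SWEET proteins, and tonoplast transporters load them into the vacuole. SWEET13, a sucrose exporter of leaf phloem, had signals of 29.6 and 49.3 in the warm and 355 and 395 in the cold (log2 3.22, SE 0.26, adjusted p = 5.33e-05). SWEET4, a hexose carrier, rose from 32.9 and 25.5 to 126 and 109.5 (log2 1.94, SE 0.39, adjusted p = 0.00629). SWEET17, a fructose carrier of the vacuole membrane, fell from 265 and 180.0 to 68.0 and 34.5 (log2 -2.12, SE 0.39, adjusted p = 0.00403). The family therefore held members that rose and members that fell. SWEET2, also of the vacuole membrane, fell from 148 and 135 to 44.9 and 47.2 (log2 -1.58, SE 0.23, adjusted p = 0.00116). SWEET11 and SWEET16 were at 0.33 and -1.13 (adjusted p = 0.305 and 0.332). The 2 tonoplast monosaccharide transporters tested also moved apart. TMT2 rose from 69.8 and 72.1 to 390.3 and 408 (log2 2.46, SE 0.19, adjusted p = 4.48e-05). TMT1 fell from 585 and 461 to 291 and 341 (log2 -0.72, SE 0.21, adjusted p = 0.0351). SFP1, a member of the sugar transporter family chosen after its values were seen, fell from 332 and 278 to 110.4 and 119.7 (log2 -1.38, SE 0.22, adjusted p = 0.00169). SWEET17 lost its call without warm replicate 1 (adjusted p = 0.0547), SWEET4 without cold replicate 1 or warm replicate 2 (adjusted p = 0.0596 and 0.0559), and TMT1 without any 1 wild-type array or either warm sfr3 array (adjusted p = 0.0585 to 0.235), with arrays centred on their medians (adjusted p = 0.194) and with no intensity trend in the fit (adjusted p = 0.0810).

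Single genes of starch synthesis and of starch breakdown rose. APL3, a large subunit of ADP-glucose pyrophosphorylase for starch synthesis, rose from 33.9 and 42.1 to 160.2 and 166 (log2 2.05, SE 0.29, adjusted p = 0.00105). PWD, a phosphoglucan water dikinase for starch breakdown, rose from 165 and 196 to 1056 and 1013 (log2 2.51, SE 0.20, adjusted p = 5.61e-05). ATSPS4F, a sucrose phosphate synthase, rose from 56.8 and 68.8 to 314 and 281 (log2 2.21, SE 0.26, adjusted p = 0.000382). Each was several-fold higher on both cold arrays. DPE1, a disproportionating enzyme of starch breakdown, was at 0.65 (adjusted p = 0.0568). Of the 10 tested genes on the starch and sugar list 4 rose (against 11.9% of all genes), these and TMT2, and 2 fell (against 12.2%), SWEET17 and TMT1, with a median of 0.49. These 4 were called in every fit that left out 1 wild-type array.

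Other families also held members of opposite direction. The genes given here were chosen after their values were seen, and no count was made over their families. Vacuolar processing enzymes are proteases that mature vacuolar proteins. BETA-VPE, best known from seeds, rose from 33.5 and 54.5 to 258 and 320.1 (log2 2.69, SE 0.26, adjusted p = 0.000151). GAMMA-VPE, the form of vegetative tissue, fell from 1271 and 1467 to 806 and 658 (log2 -0.91, SE 0.27, adjusted p = 0.0339). Tetraspanins are membrane proteins that organise microdomains. TET2 rose from 15.1 and 21.3 to 65.7 and 80.6 (log2 1.90, SE 0.39, adjusted p = 0.00711). TET8, a marker of plant exosomes, fell from 1072 and 1065 to 265 and 274 (log2 -1.98, SE 0.31, adjusted p = 0.00167). GAMMA-VPE lost its call without any 1 wild-type array or either warm sfr3 array (adjusted p = 0.0608 to 0.225), with arrays centred on their medians (adjusted p = 0.173) and with no intensity trend in the fit (adjusted p = 0.0772), and TET2 without warm replicate 1, cold replicate 1 or cold replicate 2 (adjusted p = 0.0546 to 0.102).

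Serine carboxypeptidases are vacuolar or secreted enzymes, some of which act as acyltransferases. scpl35 rose from 95 and 162 to 659.9 and 807 (log2 2.53, SE 0.27, adjusted p = 0.000217). SCPL49 rose from 203 and 301 to 993 and 1026 (log2 2.02, SE 0.22, adjusted p = 0.000296). scpl46 rose from 54.5 and 57.0 to 221 and 198 (log2 1.87, SE 0.20, adjusted p = 0.000233). These 3 were higher on both cold arrays. scpl50 fell from 56.0 and 79.3 to 18.5 and 21.5 (log2 -1.64, SE 0.37, adjusted p = 0.0114). Of 15 tested genes 7 rose (against 11.9% of all genes) and 1 fell (against 12.2%), with a median of 0.58. Without warm replicate 1, warm replicate 2, cold replicate 1 or cold replicate 2, in that order, there were 3, 5, 4 and 3 rises. scpl50 lost its call without any 1 wild-type array (adjusted p = 0.0525 to 0.129).

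UDP-glycosyltransferases attach sugars to small molecules. Of 24 tested genes matched to this family by symbol or full name 3 rose (against 11.9% of all genes) and 6 fell (against 12.2%). Members that the annotation names in neither way are not in these counts, so the balance of rises and falls holds only for the matched genes. Leaving out warm replicate 1, warm replicate 2, cold replicate 1 or cold replicate 2 gave 2, 1, 1 and 1 rises and 2, 3, 2 and 3 falls. UGT78D2, which glycosylates flavonols, rose from 56.3 and 61.0 to 166 and 203 (log2 1.61, SE 0.21, adjusted p = 0.000756). UGT78D1, its close relative, rose from 44.9 and 35.4 to 121 and 156 (log2 1.73, SE 0.50, adjusted p = 0.0302). UGT72E1, which glycosylates lignin precursors, fell from 483 and 355 to 40.8 and 37.4 (log2 -3.34, SE 0.26, adjusted p = 4.95e-05). UGT72E2, its relative with the same kind of substrate, was at 0.05 (adjusted p = 0.949). UGT85A4 fell from 142 and 103 to 9.72 and 9.63 (log2 -3.38, SE 0.37, adjusted p = 0.000261). UGT78D1 lost its call without any 1 wild-type array or either warm sfr3 array (adjusted p = 0.0531 to 0.210), after quantile normalization (adjusted p = 0.0695) and with arrays centred on their medians (adjusted p = 0.0642).

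**Figure D3:**
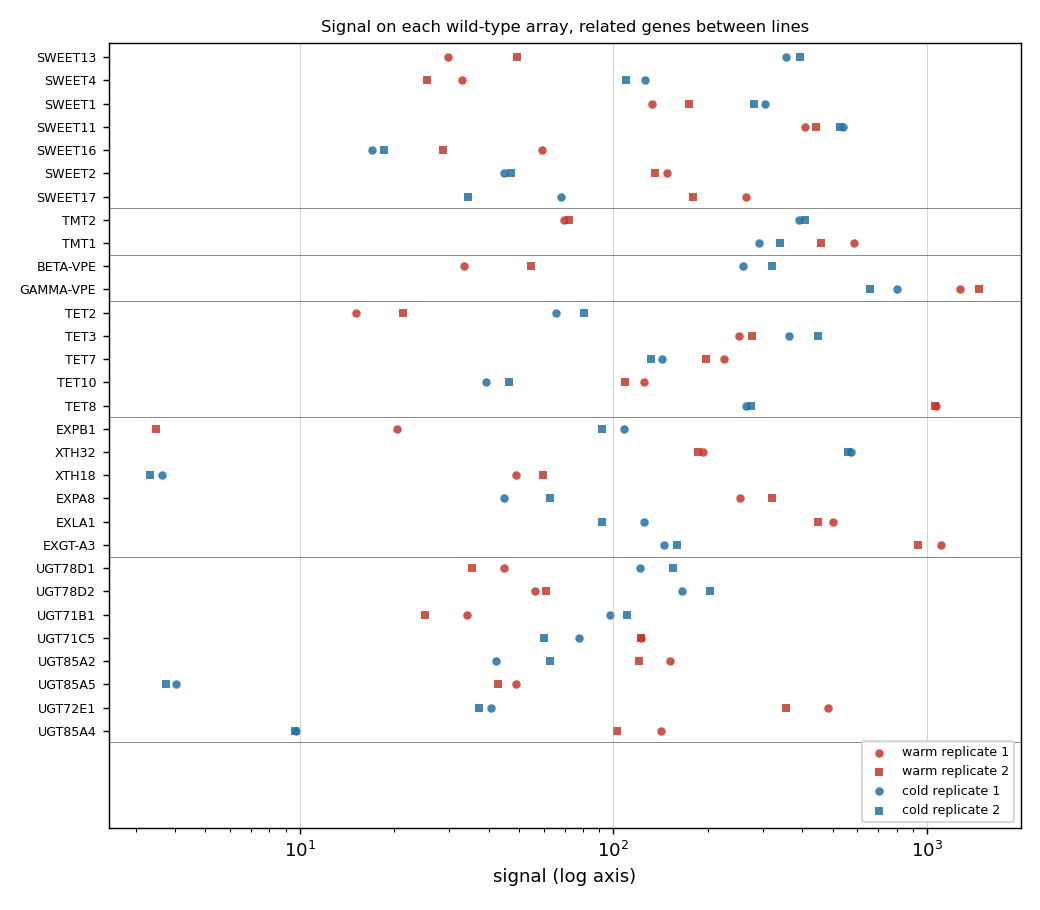
Signal (horizontal, log axis) on each of the 4 wild-type arrays for related genes, with lines between families. Red symbols are warm arrays, blue symbols cold arrays, circles replicate 1 and squares replicate 2; SWEET13, TMT2, BETA-VPE and TET2 have their cold arrays to the right, and SWEET17, TMT1, GAMMA-VPE and TET8 to the left.

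Of 5 tested genes on the flavonoid list 3 rose, and 2 rose in each fit without 1 wild-type array. The list has 30 genes, most of which could not be tested, and over all genes 11.9% rose. The 3 on the list that rose were both UGT78D genes and the locus AT1G06000, with signals of 1.06 and 1.69 in the warm and 128 and 131 in the cold. Both warm arrays were below background, and the cold level was at least 15.2-fold higher (adjusted p = 0.000376). CHIL, a chalcone isomerase-like protein that promotes flavonoid synthesis, rose from 4.41 and 30.6 to 114 and 162 (log2 3.23, SE 0.66, adjusted p = 0.00666). DFR and UF3GT, late enzymes of pigment synthesis, were at 0.82 and 1.1 (adjusted p = 0.150 and 0.123). CHIL lost its call without cold replicate 2 (adjusted p = 0.0747).

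Of 19 genes on the light-signalling list only 3 could be tested, and all 3 rose, against 11.9% of all genes. HYH, the HY5 homologue and a bZIP factor of photomorphogenesis, had signals of 10.9 and 1.52 in the warm and 84.0 and 78.1 in the cold (log2 3.59, SE 0.73, adjusted p = 0.00656), and its warm arrays stood several-fold apart. The locus AT3G44450 rose from 54.3 and 68.4 to 542 and 561 (log2 3.13, SE 0.19, adjusted p = 1.46e-05). The locus AT3G52740 rose from 8.34 and 7.29 to 70.9 and 73.6 (log2 2.90, SE 0.62, adjusted p = 0.00824). GI (GIGANTEA), a gene of the circadian clock and of flowering, rose from 254 and 360.2 to 859 and 798 (log2 1.45, SE 0.20, adjusted p = 0.000983). The sources used here do not state the hour of harvest, and its part in these values was not tested. HYH lost its call without cold replicate 1 or cold replicate 2 (adjusted p = 0.0732 and 0.0729), and AT3G52740 without cold replicate 1, warm replicate 2 or cold replicate 2 (adjusted p = 0.0512 to 0.0916).

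Most tested genes grouped under ER bodies, compartments of the endoplasmic reticulum that store beta-glucosidases, were lower. PYK10, the main ER-body beta-glucosidase, fell from 196 and 132 to 28.8 and 31.8 (log2 -2.33, SE 0.42, adjusted p = 0.00342). NAI2, needed to form these bodies, fell from 88.6 and 73.4 to 26.0 and 16.4 (log2 -1.86, SE 0.35, adjusted p = 0.00428). JAL33, a jacalin-related lectin of the PYK10 complex, fell from 88.1 and 78.0 to 16.2 and 12 (log2 -2.40, SE 0.43, adjusted p = 0.00366). All 3 were low on both cold arrays. JAL34 fell from 172 and 82.4 to 38.0 and 29.1 (log2 -1.77, SE 0.37, adjusted p = 0.00715), and JAL22 was at -1.16 (adjusted p = 0.129). Of 5 tested genes of this kind 4 fell (against 12.2% of all genes) and none rose by limma's adjusted p (0 higher at an unadjusted p below 0.05). In fits without each wild-type array in turn (warm replicates 1 and 2, then cold replicates 1 and 2) there were 1, 4, 4 and 3 falls. PYK10 is also a root marker, the only one of 10 markers of other organs that could be tested, and the part of root or hypocotyl tissue in these falls was not tested. BGLU25, another beta-glucosidase, was not put in this group and rose from 98.1 and 116 to 325 and 336 (log2 1.61, SE 0.25, adjusted p = 0.00154). Of 8 tested genes matched to the beta-glucosidases by symbol or full name 2 rose (against 11.9% of all genes) and 1 fell (against 12.2%). PYK10 was not among these 8. NAI2 lost its call without warm replicate 1 (adjusted p = 0.0622), JAL33 without warm replicate 1 (adjusted p = 0.0513) and JAL34 without warm replicate 1 or cold replicate 2 (adjusted p = 0.0792 and 0.0709).

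Several regulators of defence and stress responses fell, where 12.2% of all genes fell. WRKY22, a factor of immune signalling, fell from 148 and 89.9 to 21.0 and 16.7 (log2 -2.49, SE 0.46, adjusted p = 0.00407). WRKY53, a factor of senescence, fell from 202 and 156 to 33.3 and 27.2 (log2 -2.48, SE 0.58, adjusted p = 0.0124). WRKY47 fell from 84.7 and 87.9 to 27.7 and 20.8 (log2 -1.76, SE 0.50, adjusted p = 0.0288). These were the 3 called of 5 WRKY genes tested, and 0, 1, 1 and 1 were called without warm replicate 1, warm replicate 2, cold replicate 1 or cold replicate 2. EIN3, a central factor of ethylene response, fell from 730.0 and 572 to 224 and 245 (log2 -1.45, SE 0.29, adjusted p = 0.00556). PDF1.2b, an ethylene- and jasmonate-responsive defensin whose probes near-identical copies may share, fell from 1336 and 903 to 88.6 and 78.9 (log2 -3.68, SE 0.73, adjusted p = 0.00573). WRKY53 lost its call without any 1 wild-type array (adjusted p = 0.0581 to 0.106) and after quantile normalization (adjusted p = 0.0511), WRKY47 without any 1 wild-type array or either warm sfr3 array (adjusted p = 0.0578 to 0.170) and with no intensity trend in the fit (adjusted p = 0.0503), WRKY22 without warm replicate 1 (adjusted p = 0.0592), EIN3 without warm replicate 1 or cold replicate 1 (adjusted p = 0.0632 and 0.0503) and PDF1.2b without warm replicate 1 (adjusted p = 0.0608).

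Ubiquitin ligases mark proteins for breakdown. Of 11 tested RING and U-box ligase genes 6 fell (against 12.2% of all genes) and none rose (against 11.9%) by limma's adjusted p (1 higher at an unadjusted p below 0.05). The falls numbered 1, 2, 4 and 2 without warm replicate 1, warm replicate 2, cold replicate 1 or cold replicate 2, and 3 with arrays centred on their medians. ATL8, a RING ligase, had signals of 403 and 398 in the warm and 63.4 and 61.8 in the cold (log2 -2.64, SE 0.21, adjusted p = 5.55e-05). The 2 conditions were far apart beside the replicates. Chosen after their values were seen, XERICO, a RING protein of abscisic acid metabolism, fell from 478 and 546 to 159 and 129 (log2 -1.82, SE 0.23, adjusted p = 0.000570). DI19, a drought-induced zinc finger, fell from 1945 and 1999 to 584 and 529.7 (log2 -1.82, SE 0.18, adjusted p = 0.000166). HIS1-3, a stress-inducible linker histone, fell from 126 and 131 to 21.7 and 19.3 (log2 -2.53, SE 0.42, adjusted p = 0.00249).

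The salicylic acid list has 21 genes, of which 3 could be tested. Of these AT5G03350 rose, WRKY53 fell as given above and GRX480, a glutaredoxin, was at -0.58 (adjusted p = 0.536). AT5G03350 had signals of 88.6 and 136 in the warm and 1975 and 2508 in the cold (log2 4.31, SE 0.30, adjusted p = 2.47e-05). LCR69, a defensin-like protein chosen after its values were seen, rose from 833 and 1158 to 4216 and 4718 (log2 2.18, SE 0.24, adjusted p = 0.000313). Both were several-fold higher on both cold arrays.

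Further genes of varied function were chosen after their values were seen. NDB2, an external NADH dehydrogenase of mitochondria, rose from 51.1 and 50.1 to 131 and 152 (log2 1.44, SE 0.23, adjusted p = 0.00191). CRT1b, a calreticulin that helps glycoproteins fold, rose from 265 and 278 to 813 and 963 (log2 1.70, SE 0.22, adjusted p = 0.000607). THIC, the thiamin pyrimidine synthase of chloroplasts, rose from 669.6 and 825 to 2641 and 2753 (log2 1.86, SE 0.23, adjusted p = 0.000515). Each was higher on both cold arrays. SERPIN1, a protease inhibitor, rose from 177 and 208 to 630.1 and 633 (log2 1.71, SE 0.19, adjusted p = 0.000293). Fes1B, a nucleotide exchange factor of the Hsp70 chaperone, fell from 264 and 242 to 98.6 and 85.2 (log2 -1.44, SE 0.20, adjusted p = 0.000821). Fes1C, its relative, fell from 188 and 215 to 74.6 and 67.0 (log2 -1.48, SE 0.23, adjusted p = 0.00156).

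**Figure D4:**
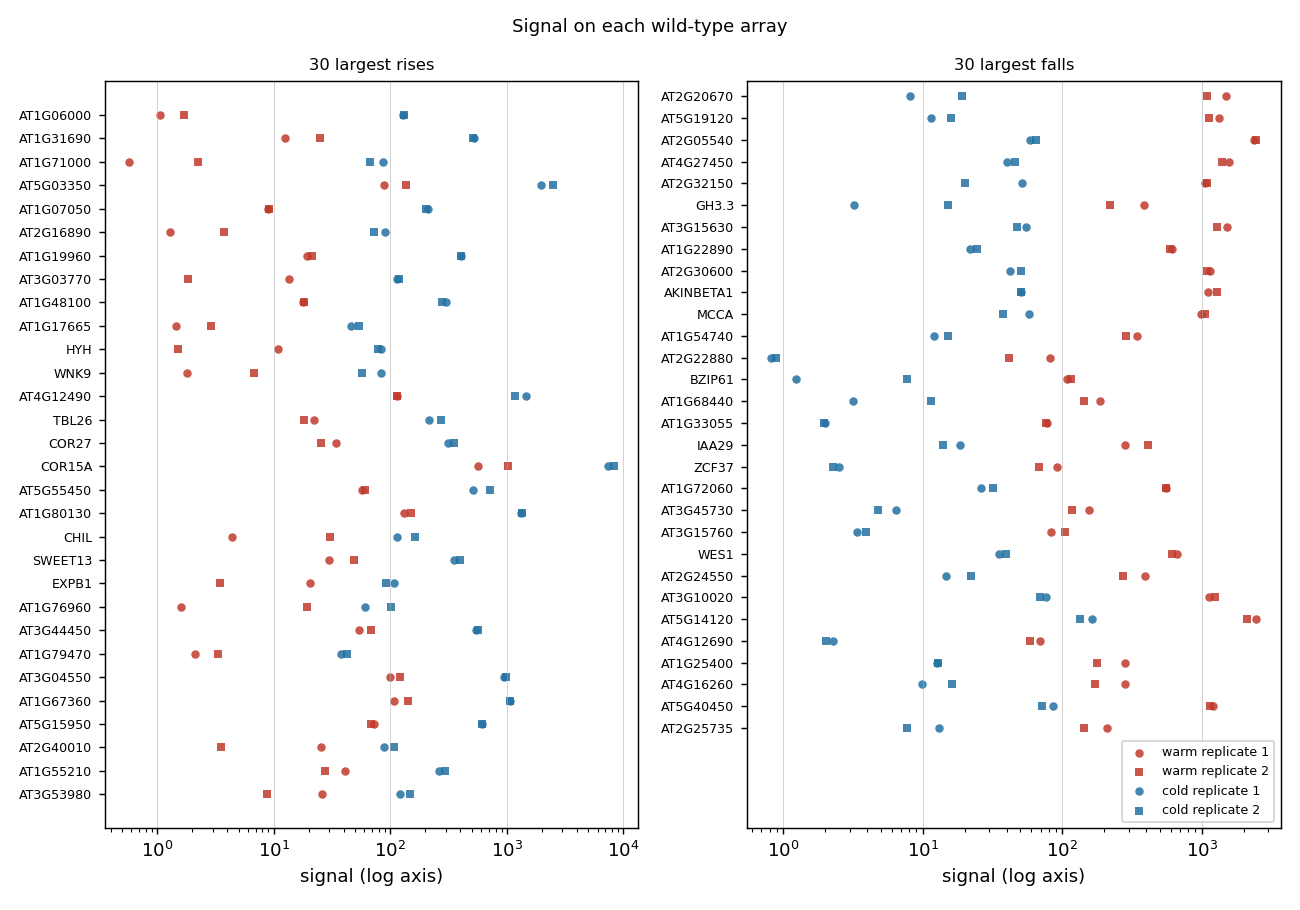
Signal (horizontal, log axis) on each of the 4 wild-type arrays for the 30 genes with the largest rises (left) and the 30 with the largest falls (right). Red symbols are warm arrays, blue symbols cold arrays, circles replicate 1 and squares replicate 2. The genes were chosen among those whose conditions do not overlap. Among the rises, genes with warm replicates several-fold apart include HYH, CHIL and EXPB1. They also include WNK9, AT1G71000 and AT2G16890, whose warm signals are below background.

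Many of the 30 largest rises and 30 largest falls had no symbol in the annotation and are given by locus. AT1G67360 rose from 108 and 143 to 1067 and 1064 (log2 3.08, SE 0.19, adjusted p = 1.46e-05). AT5G15950 rose from 72.9 and 68.6 to 607 and 617 (log2 3.07, SE 0.31, adjusted p = 0.000166). AT1G80130 rose from 130.2 and 150.0 to 1318 and 1350.3 (log2 3.24, SE 0.38, adjusted p = 0.000384). In these 3 the cold replicates were nearly equal. TBL26, of the trichome birefringence-like family of wall acetyltransferases, rose from 22.1 and 18.22 to 213 and 273 (log2 3.45, SE 0.26, adjusted p = 4.28e-05). AT4G12490 rose from 114 and 115 to 1458 and 1167 (log2 3.49, SE 0.29, adjusted p = 6.77e-05). AT5G55450 rose from 57.6 and 60.5 to 513 and 724 (log2 3.32, SE 0.33, adjusted p = 0.000166). The falls started from warm signals well above background. AT5G14120 fell from 2454 and 2112 to 162 and 134 (log2 -3.93, SE 0.21, adjusted p = 7.91e-06). AT3G10020 fell from 1120.2 and 1234 to 76.0 and 69.4 (log2 -3.98, SE 0.20, adjusted p = 5.53e-06). AT5G40450 fell from 1199 and 1136 to 85.3 and 71.9 (log2 -3.86, SE 0.20, adjusted p = 7.70e-06). Each of these still had cold signals above background. AT1G72060 fell from 550.2 and 556 to 26.4 and 32.0 (log2 -4.15, SE 0.33, adjusted p = 5.33e-05).

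A probe set counts as switched on where it was called, both warm arrays were below background and both cold arrays above it, and as switched off in the reverse case. There were 9 switched on (0.0659%) and 41 switched off (0.300%). Folds are lower bounds that set the bright arrays' mean against the background level, or the dim signal where that was higher. WNK9, a kinase of the WNK (with no lysine) family, had signals of 1.82 and 6.74 in the warm and 82.8 and 57.4 in the cold, at least 8.12-fold higher in the cold (adjusted p = 0.0138). AT2G16890 had signals of 1.29 and 3.75 in the warm and 90.4 and 72.8 in the cold, at least 9.56-fold higher (adjusted p = 0.00405). AT1G71000 had signals of 0.576 and 2.23 in the warm and 86.1 and 67.6 in the cold, at least 8.99-fold higher (adjusted p = 0.00360). By the definition of switched on, none of the 3 was above background on its warm arrays. AT1G31690 had 2 probe sets, of which the dimmer was switched on and the brighter had signals of 12.6 and 25.1 in the warm and 528 and 509 in the cold (log2 4.70, SE 0.49, adjusted p = 0.000218). Across the 9 probe sets the cold signals were 37.8 to 162. The same fits, leaving out warm replicate 1, warm replicate 2, cold replicate 1 or cold replicate 2, gave 35, 17, 3 and 2 switched on, and leaving out cold sfr3 replicate 1 or 2 gave 14 each time. A probe set dim in the warm entered the test only through its other arrays, and with no filter on mean signal 52 were switched on. WNK9 lost its call without warm replicate 1, cold replicate 1 or cold replicate 2 (adjusted p = 0.0837 to 0.121), AT2G16890 without cold replicate 1 or cold replicate 2 (adjusted p = 0.0750 and 0.0615) and AT1G71000 without cold replicate 1 or cold replicate 2 (adjusted p = 0.0960 and 0.0784).

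Of the 41 probe sets switched off, 17 were paired with 1 gene. BZIP61, a bZIP transcription factor, had signals of 108 and 116 in the warm and 1.24 and 7.74 in the cold, at least 13.4-fold lower in the cold (adjusted p = 0.00389). ZCF37 had signals of 92.3 and 68.7 in the warm and 2.51 and 2.28 in the cold, at least 9.51-fold lower (adjusted p = 0.00103). SUFE2, an activator of iron-sulphur cluster assembly, had signals of 62.6 and 44.8 in the warm and 4.75 and 2.82 in the cold, at least 6.33-fold lower (adjusted p = 0.00186). By the definition of switched off, all 3 were above background on both warm arrays and below it on both cold arrays. XTH18, a xyloglucan endotransglucosylase, had signals of 48.9 and 59.8 in the warm and 3.62 and 3.34 in the cold, at least 6.46-fold lower (adjusted p = 0.0387). UGT85A5, of the family of UGT85A4, had signals of 48.8 and 42.9 in the warm and 4.03 and 3.75 in the cold, at least 5.46-fold lower (adjusted p = 0.0318). AT3G45730 had signals of 156 and 118 in the warm and 6.47 and 4.82 in the cold, at least 16.2-fold lower (adjusted p = 9.45e-05). That bound was the highest among the 17 genes. A probe set dim in the cold entered the test only through its other arrays, and with no filter on mean signal 97 were switched off. Without warm replicate 1, warm replicate 2, cold replicate 1 or cold replicate 2, in that order, there were 22, 27, 72 and 64 switched off. BZIP61 lost its call without warm replicate 1 (adjusted p = 0.0501), UGT85A5 without any 1 wild-type array or either warm sfr3 array (adjusted p = 0.0753 to 0.194) and XTH18 without any 1 wild-type array or either warm sfr3 array (adjusted p = 0.0789 to 0.197) and with no intensity trend in the fit (adjusted p = 0.0542).

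**Figure D5:**
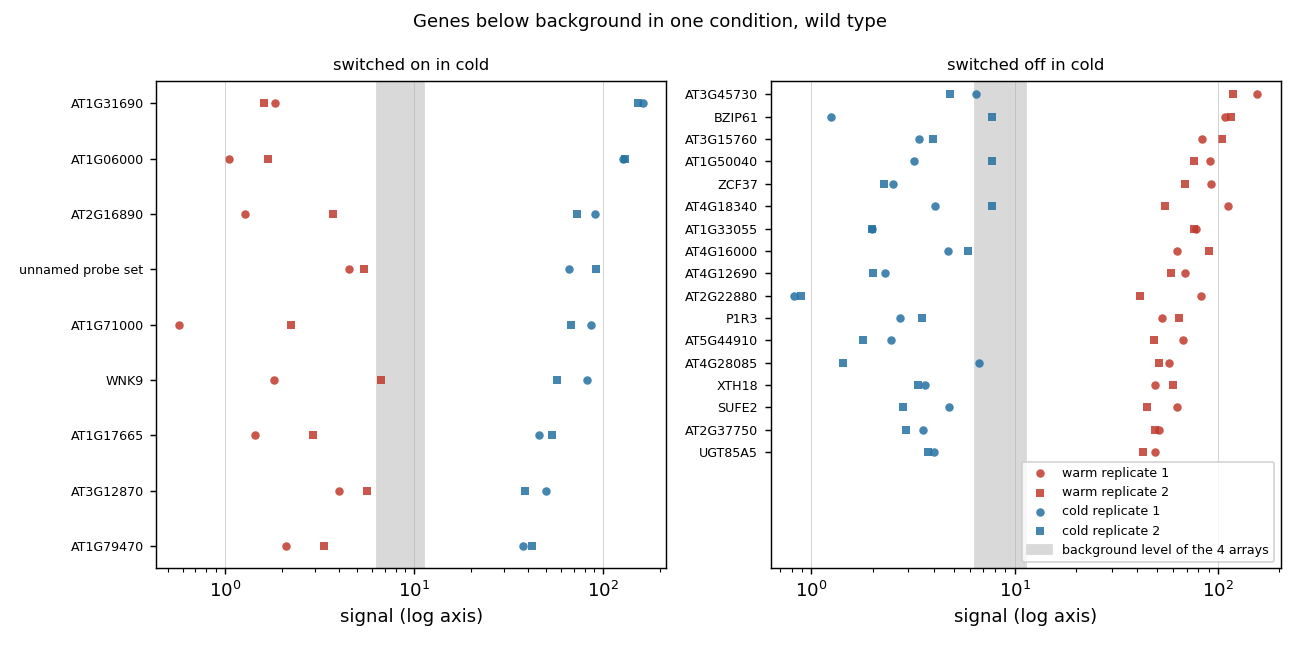
Signal (horizontal, log axis) on each of the 4 wild-type arrays for the 9 probe sets switched on (left) and the 17 genes switched off (right), with red symbols for warm and blue for cold arrays, circles for replicate 1 and squares for replicate 2. The grey band spans the background levels of the 4 arrays, 6.37 to 11.3, and the switched-on probe sets reach 37.8 to 162 in the cold.

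The cold response of sfr3, from its own warm and cold arrays, was set beside that of wild type. The comparisons share no arrays, but share the spread estimated in the fit. The harvest text names the rosette for wild type and the aerial parts for sfr3, so any difference in the organs taken cannot be told apart from genotype in the shares and differences given here. In sfr3 1053 genes rose (14.5%) and 1081 fell (14.9%). Of the 864 genes that rose in wild type 602 (69.7%) also rose in sfr3, which is 57.2% of those that rose there. Of the 884 that fell 673 (76.1%) also fell, which is 62.3% of those that fell there. With cold sfr3 replicate 1 left out, 1527 genes rose and 1616 fell in wild type, and 988 (64.7%) and 1095 (67.8%) of these did so in sfr3. By limma's adjusted p 0 genes were called in opposite directions, 7 were at an unadjusted p below 0.05 in both, and 4 were called without cold sfr3 replicate 1. These counts cover only probe sets paired with 1 gene. Among those paired with no single gene, some were called lower in wild type and higher in sfr3, at log2 -2.46 and 2.33 or at -0.91 and 3.04. The log2 change in sfr3 was -4.36 for MCCA, -5.01 for ATG8E, -4.68 for IAA29, 2.16 for SAPX, 1.55 for PDF1B and 3.14 for SWEET13. All 6 had the sign they had in wild type. On cold sfr3 replicate 1, ATG8E (9.56) and IAA29 (10.3) were below that array's background of 35.4, so the sizes of their falls in sfr3 are uncertain. The difference between the responses was called for 5 of 13648 probe sets (0.0366%), with 803 at an unadjusted p below 0.05. HAT2 was among them, with a larger fall in sfr3 (-5.90) than in wild type (-3.25). Its cold signals in sfr3 were below background on both arrays, so the size of that fall is uncertain. The number called was 0 to 1 without any 1 wild-type array, 0 and 2 without warm sfr3 replicate 1 and 2, and 16 and 3802 without cold sfr3 replicate 1 and 2.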

How the data were processed

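Rosettes of wild type and, per the labels, aerial parts of sfr3, warm and cold, with 2 samples in each group, were measured on Affymetrix ATH1 arrays. RNA was prepared with a Qiagen kit and labelled by a one-cycle biotin protocol, per the labels' protocols. Each deposited value is an intensity on a linear scale, the MAS5 signal that the authors obtained with GCOS and MAS5 per the submitters' processing notes, whose versions the sources used here do not state, and the 2% trimmed mean of every array is 100. Array number limits the precision, and no label says that the 2 samples of a group were grown separately. The p-values therefore cover only the spread between those samples, and that spread may be technical. No probe set had equal signals in replicates.

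With 64 control probe sets left out, 22746 remained. Signals were taken to log2 after adding 2.17, their 10th percentile over the table. The brightest 60% by mean over the 8 arrays (13648 probe sets, from a mean of 26.7) were fitted with limma 3.58.1 in R 4.3.3 (lmFit and eBayes with an intensity trend, all 8 arrays, residual df 4), with Benjamini-Hochberg adjustment over all of them. The code was tested on simulated data. The platform annotation paired 13513 probe sets with 1 gene, 503 with several and 8730 with none, and 1838 of the called probe sets had no single gene and go unnamed. For a gene with several probe sets the one with the highest mean was used.

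Named genes are, by rule, the 30 largest rises and 30 largest falls among called genes whose groups do not overlap, up to 12 switched on and 12 switched off, up to 4 called members of each of 28 gene lists, and up to 2 of each of 51 families. Of 516 list entries 79 could be tested. Families were matched by symbol or full name, so members named in neither way are not counted. Genes of other kinds with a like symbol may be. The text leaves some of these genes out, and it draws further genes from groups, lists and families or singly; those 74 were chosen after their values were seen. The members, lists and groups were all chosen with earlier results of these data known, and the groups and families other than the lists after these values were seen. Alternatives tried were other pseudocounts, filters, scalings, thresholds and backgrounds, no intensity trend, a replicate block, leaving out each array, and the wild-type arrays alone.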

Additional observations from a re-analysis of the deposited data

Results flagged for a closer look

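The difference between the cold responses of sfr3 and wild type, tested as an interaction in limma, was called for 5 probe sets. HAT2 fell further in sfr3, by a difference of -2.65 on the log2 scale (SE 0.32, adjusted p = 0.0416). Its cold signals were 50.6 and 41.7 in wild type and 6.31 and 6.15 in sfr3, and its warm signals 485 and 428 in wild type and 451 and 552 in sfr3. Both cold sfr3 signals were below the background of their own arrays (35.4 and 9.33), so the size of that fall is uncertain. HAT2 was the only difference called below 0. With a pseudocount of 16, no filter, quantile normalization or a replicate block, 0 differences below 0 were called. The locus AT2G16630 had a difference of 3.27 (SE 0.30, adjusted p = 0.0112), with cold signals of 46.9 and 57.2 in wild type and 475 and 572 in sfr3. Its warm signals were 76.5 and 81.1 in wild type and 75.7 and 82.9 in sfr3. The remaining 3 probe sets are paired with no single gene. The first had a difference of 2.64 (adjusted p = 0.0310), with cold signals of 84.6 and 100.5 in wild type and 577 and 774 in sfr3. The next had a difference of 3.95 (adjusted p = 0.00683), with cold signals of 233 and 175 in wild type and 2387 and 3205 in sfr3. The last had a difference of 4.80 (adjusted p = 0.0310), with cold signals of 87.5 and 51.5 in wild type and 2518 and 1765 in sfr3. The last 2 of these fell in wild type and rose in sfr3. Groups of 2 arrays were not tested for outlying samples.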

How the results depend on the processing

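The fit called 3594 probe sets in wild type, and separate counts under other pseudocounts, filters, scalings, no intensity trend and a minimum fold of 2 were 2504 to 3724. An adjusted p below 0.01 gave 1911, leaving out 1 array 1500 to 6206, and the wild-type arrays alone 6551. The count rose without either cold sfr3 array and with the wild-type arrays alone, but not without either warm sfr3 array. The cause was not tested. Switched on, 9 in the text, was 52 with no filter, 0 with the highest 40% of probe sets, 14 with the wild-type arrays alone and 2 to 35 without 1 array. Switched off, 41 in the text, was 97, 12, 42 and 22 to 72 under the same changes, and 80 with the highest dark control as background. The 5 response differences became 3 after quantile normalization, 0 with arrays centred on their medians, 0 with no intensity trend and 0 to 3802 without 1 array. For the named genes 3156 gene-by-setting results kept their direction and side of the threshold, 234 fell short of it and 42 newly passed. The sign turned only in 2 genes near 0 that were not called, GID1A (0.0097 after quantile normalization, 0.0014 with arrays centred on their medians and -0.22 to 0.090 without 1 array, turned without warm replicate 1) and UGT72E2 (-0.11 to 0.20 without 1 array, turned without warm replicate 2). Same-numbered arrays did not deviate together (correlations of -0.087 to 0.052), so the numbers do not pair the samples, and a fit with the replicate block called 3397 probe sets, 9 switched on, 40 switched off and 4 response differences. Signals below the background (6.37 to 11.3 on the wild-type arrays, 35.4 on cold sfr3 replicate 1) have no order, which limits the dim genes.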

Other observations

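Genes for subunits of the photosystems did not pass: of 27 tested, 0 were called by limma (against 24.1% of all genes), 1 was lower and 0 higher at an unadjusted p below 0.05, and log2 values ran from -0.68 to 0.47. With the wild-type arrays alone 7 were lower and 1 higher. Of the 27, 20 are plastid-encoded and share the limit given above for transcripts without long poly(A) tails. By symbol or full name 13 tested genes were matched to the cytochromes P450, mostly of the CYP71B kind, so they do not stand for the whole family. Of these 0 rose by limma (0 at an unadjusted p below 0.05) and 2 fell, CYP71B22 and CYP71B23, against 12.2% lower over all genes. Both lost their call without warm replicate 1 (adjusted p = 0.0891 and 0.0931) and without cold replicate 2 (adjusted p = 0.0740 and 0.0729).

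The probe set with the highest bound among those switched off is paired with no single gene. Its signals were 682 and 607 in the warm and 2.18 and 2.48 in the cold in wild type, at least 76.9-fold lower. In sfr3 they were 568 and 1012 in the warm and 3.59 and 1.81 in the cold. A second unnamed probe set had signals of 523 and 447 in the warm and 1.4 and 2.60 in the cold in wild type, at least 57.8-fold lower.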
